A study of Homo sapiens with 24 samples.

Results

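DEPTOR, an inhibitory subunit of the mTOR kinase complexes, was described in ovarian cancer cells together with 9 genes of the same machinery: MTOR, RPTOR, RICTOR, MLST8, AKT1S1, TSC1, TSC2, RHEB and RPS6KB1. These 10 genes are 10 of the 28277 genes counted. They were chosen by the DEPTOR values of PEO4 cells before and after treatment with pyridostatin (PDS), which rose at 2 h and came back down by 6 h, and the other 9 genes were taken as the partners of DEPTOR. The comparisons between PEO4 cells with and without PDS are therefore given as a description, without a test for any of the 10 genes. PEO1 and PEO4 are cell lines of high-grade serous ovarian carcinoma from 1 patient, established before and after the tumour became resistant to platinum-containing chemotherapy, so each line stands for a single tumour sample. RNA-seq was performed on 24 libraries in 8 conditions of 3 biological replicates each. In pair A, untreated PEO1 cells of wild-type label, which lack BRCA2 function, were set against untreated PEO4 cells of wild-type label. According to the paper, PEO4 cells carry a BRCA2 reversion by which the reading frame is restored. BRCA2 function thus differed between the lines in pair A, where it cannot be told apart from line. The paper's methods state that sodium pyruvate was added to the medium of these PEO1 cells and their matching PEO4 cells. In pair B, PEO1 BRCA2+ cells, in which BRCA2 function is restored, and PEO4 cells of wild-type label were each left untreated or exposed to 5 µM PDS, a small molecule that binds G-quadruplexes (G4s, folded structures of guanine-rich DNA), for 2 h or 6 h.

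mTOR is a protein kinase that couples nutrients, growth factors and energy to cell growth. It works in a complex with RPTOR (mTORC1), which drives protein synthesis through RPS6KB1 and other substrates, and in a complex with RICTOR (mTORC2), which phosphorylates AKT and SGK1. DEPTOR binds mTOR in both complexes and restrains the kinase, and its protein is turned over rapidly in growing cells.

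The total count was 32528913 to 63882077 in the pair A libraries, between 18699929 and 22375644 per untreated pair B library and between 33260167 and 43713947 per treated pair B library. Every treated library of pair B was thus deeper than every untreated one of pair B, and ribosomal RNA genes took 0.217% to 0.4735% of the counts of the untreated pair B libraries and 0.01635% to 0.0369% of the treated ones, so that PDS and these library differences cannot be told apart in the comparisons with untreated cells. The libraries at 2 h and 6 h were alike in both respects. All 8 of the 8 epithelial ovarian carcinoma markers were above 1 CPM (counts-per-million) in every condition. Of the fibroblast markers, COL1A1, COL1A2 and COL3A1 (3 of 6) were above 1 CPM in untreated PEO4 cells of pair B, where the 6 genes summed to 38.3 to 42.1 CPM, against 8.92 to 13.2 CPM at 2 h and 3.55 to 4.72 CPM at 6 h of PDS. The defining fibroblast markers DCN and LUM stayed at 0 to 5 and 0 to 8 counts. In pair A the line difference in the fibroblast sum was the reverse. The 6 genes summed to 32.8 to 36.3 CPM in PEO1, with COL1A1 and PDGFRB above 1 CPM. In PEO4 of pair A they summed to 8.52 to 13.3 CPM, with COL1A1 and COL1A2 above 1 CPM. The leukocyte markers PTPRC and CD3E had 0 to 1 counts in pair B, while CD68 was above 1 CPM throughout, and the 5 leukocyte markers summed to 35.1 to 58.1 CPM in untreated PEO4 and 64.8 to 76.8 CPM after PDS. In bulk RNA, fewer cells of a type and less RNA per cell cannot be told apart, and the part of these markers in the results was not tested. Replicate 1 of PEO4 in pair A and replicate 2 of untreated PEO4 in pair B stood apart from the other libraries of their groups for DEPTOR, and the values without them are given below.

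Because PDS binds G4s, the RefSeq promoter windows of the genes (300 bases of GRCh38.p14, from 250 before to 50 after the start) were searched on both strands for 4 runs of at least 3 G spaced by 1 to 7 bases, the usual letter pattern of a G4. Windows were searched for 7 of the 10 genes (8 windows, with 2 for TSC2). MLST8 and AKT1S1 had no window, and DEPTOR was left out of the search, so nothing is said of its promoter. The pattern was found for MTOR, RHEB and TSC2, which is 3 of the 7 genes, and in 8778 of all 35116 promoter windows. The former counts genes and the latter windows, so these are not like shares, and a share over all genes was not computed. The matches are shown 5′ to 3′ because they are the stretches the ligand's target pattern picks out among the genes, with the runs of G in capitals. In RHEB the middle run of 8 G serves as 2 of the 4 runs, with G bases between them as the spacer. That of MTOR lies on the strand of the gene, 21 to 47 bases after its start (chr1:11262504-11262530, minus strand). That of RHEB lies on the opposite strand, 137 to 120 bases before the start (chr7:151520015-151520032, plus strand). Those of TSC2 both lie on the strand opposite to the gene, 230 to 206 bases before a first start (chr16:2047755-2047779, minus strand) and 50 to 26 bases before a second start (chr16:2048152-2048176, minus strand).
MTOR: GGGGaaggcGGGcggtGGGGcaGGGGG
RHEB: GGGGaGGGGGGGGcGGGG
TSC2, first start: GGGacccGGGGctGGGccgcGGGGG
TSC2, second start: GGGttgcagtGGGcgcGGGtgaGGG
A match is a description of the letters only. Whether a G4 forms at these places in these cells was not analysed here.

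DEPTOR was the least abundant of the 10 transcripts in untreated PEO4 cells of pair B and stood at 50.9 times its untreated level after 2 h of PDS and at 4.62 times that level after 6 h. Its gene spans 119873722 to 120050918 on chromosome 8 (hg38, plus strand), and no other listed gene overlaps it. Scaled by TMM, the untreated PEO4 libraries held 1.47, 3.92 and 1.61 CPM of DEPTOR (34 to 78 counts each). After 2 h of PDS the 3 libraries held 118, 137 and 101 CPM (4218 to 4829 counts), and after 6 h they held 10.6, 10.8 and 10.96 CPM (354 to 444 counts). The 3 time points did not overlap in any library: each library at 2 h was above each at 6 h, and each at 6 h above each untreated one. The lowest library at 2 h was 25.8 times the highest untreated library. The means were 2.33 ± 1.37, 119 ± 17.7 and 10.8 ± 0.184 CPM (SD, n = 3 each). The SD of log2 CPM was 0.759 untreated, 0.217 at 2 h and 0.0245 at 6 h. The fitted log2 fold changes were 5.70 at 2 h and 2.24 at 6 h against untreated cells, and -3.46 at 6 h against 2 h. Untreated replicate 2 was the highest of the 3 untreated libraries. Without it the untreated mean was 1.54 CPM, and the levels at 2 h and 6 h were 77.0 and 6.99 times that mean. That library was also the highest of its group for COL1A2 (17.3 CPM against 5.07 and 1.797), and the part of this in its DEPTOR value was not tested.

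In PEO1 BRCA2+ cells DEPTOR did not pass the test at either time. The untreated libraries held 3.79, 4.75 and 5.05 CPM, those at 2 h held 5.07, 4.42 and 3.998 CPM, and those at 6 h held 3.55, 4.76 and 4.05 CPM. The 3 sets overlapped one another. The log2 fold change was -0.02 (standard error 0.24) at 2 h and -0.15 (standard error 0.24) at 6 h against untreated cells (adjusted p = 0.956 and 0.637, Benjamini-Hochberg, edgeR quasi-likelihood). Set beside each other, the untreated levels of the lines in pair B overlapped, since PEO4 replicate 2 (3.92 CPM) was above the lowest PEO1 BRCA2+ library (3.79 CPM). The overlap rested on that library, since the other PEO4 libraries (1.47 and 1.61 CPM) lay below all of PEO1 BRCA2+. Ordered by their means within pair B, PEO4 at 2 h came first and PEO4 at 6 h second, each without overlap with the next condition, followed by the 3 PEO1 BRCA2+ conditions and untreated PEO4, where neighbours in the order overlapped, untreated PEO4 through replicate 2 alone.

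In pair A, where the libraries were made and scaled separately, DEPTOR was at 15.5, 16.6 and 15.8 CPM in PEO1 and at 25.7, 8.31 and 13.9 CPM in PEO4. The PEO4 libraries lay on both sides of the PEO1 libraries, and the means were close (15.95 ± 0.569 and 15.97 ± 8.88 CPM, SD, n = 3 each). The log2 fold change of PEO4 over PEO1 was 0.02 (standard error 0.40, adjusted p = 0.970, Benjamini-Hochberg, edgeR quasi-likelihood). It rested on PEO4 replicate 1: without that library it was -0.52 (adjusted p = 0.0158 by the same test).

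**Figure D1:**
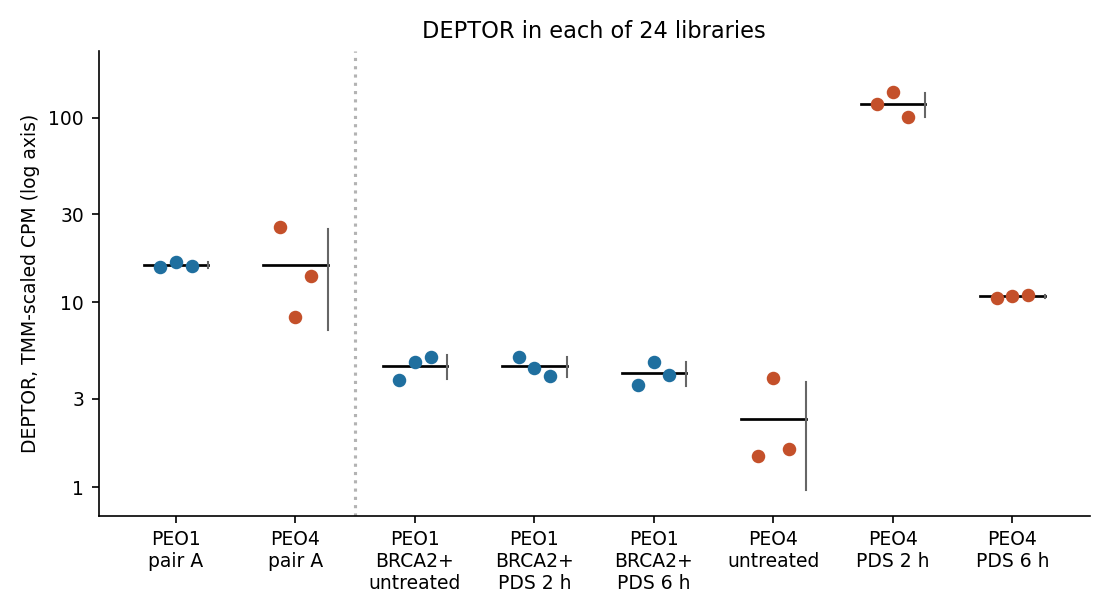
DEPTOR in each library, as TMM-scaled CPM on a log axis, for the 8 conditions. Points are libraries, black lines the mean of 3 and grey vertical lines the mean ± SD, and the dotted line separates pairs A and B, which were scaled separately. PEO4 after 2 h of PDS lies at 101 to 137 CPM and after 6 h at 10.6 to 10.96 CPM, above the untreated PEO4 libraries at 1.47 to 3.92 CPM, while the PEO1 BRCA2+ libraries stay between 3.55 and 5.07 CPM.

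To set DEPTOR against the kinase it binds, CPM were divided by the length of the canonical transcript (2569 bases for DEPTOR and 8721 for MTOR), which gives a level per kilobase. On this scale DEPTOR stood at 6.15 ± 3.31% of MTOR in untreated PEO4 of pair B (SD, n = 3), with libraries from 4.03% to 9.96%. At 2 h of PDS it stood at 510 ± 156% of MTOR, with libraries from 380% to 683%, and at 6 h at 27.9 ± 1.48%. No library at 2 h came near the other times, and DEPTOR passed from a minor to a major transcript relative to MTOR and then to a minor one again. At 6 h it was still above its untreated level, with libraries from 26.4% to 29.3%. In rank among the 10 genes by level per kilobase, DEPTOR was last (10 of 10) in untreated PEO4, 3 of 10 at 2 h after RHEB and AKT1S1, and 8 of 10 at 6 h. The level per kilobase at 2 h was 46.2 ± 6.90 CPM for DEPTOR, 94.3 for RHEB, 48.7 for AKT1S1, 42.2 for MLST8, 21.1 for RPTOR and 9.34 for MTOR. The libraries of DEPTOR overlapped those of AKT1S1 (SD 4.76) and MLST8, so that its place among these 3 is not settled. MTOR was itself lower at 2 h, so both terms of the ratio moved. In PEO1 BRCA2+ the ratio to MTOR was 14.2 ± 1.33% untreated, 20.1 ± 3.57% at 2 h and 19.6 ± 3.97% at 6 h. In pair A it was 68.4 ± 0.257% in PEO1 and 42.9 ± 19.9% in PEO4. With the summed length of all annotated exons in place of the canonical transcript, an alternative chosen after seeing the data, the PEO4 values of pair B became 9.22%, 765% and 41.9%, in the same order, and DEPTOR ranked 2 of 10 at 2 h, at 45.2 CPM per kilobase against 16.2 for MLST8 and 15.1 for AKT1S1.

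**Figure D2:**
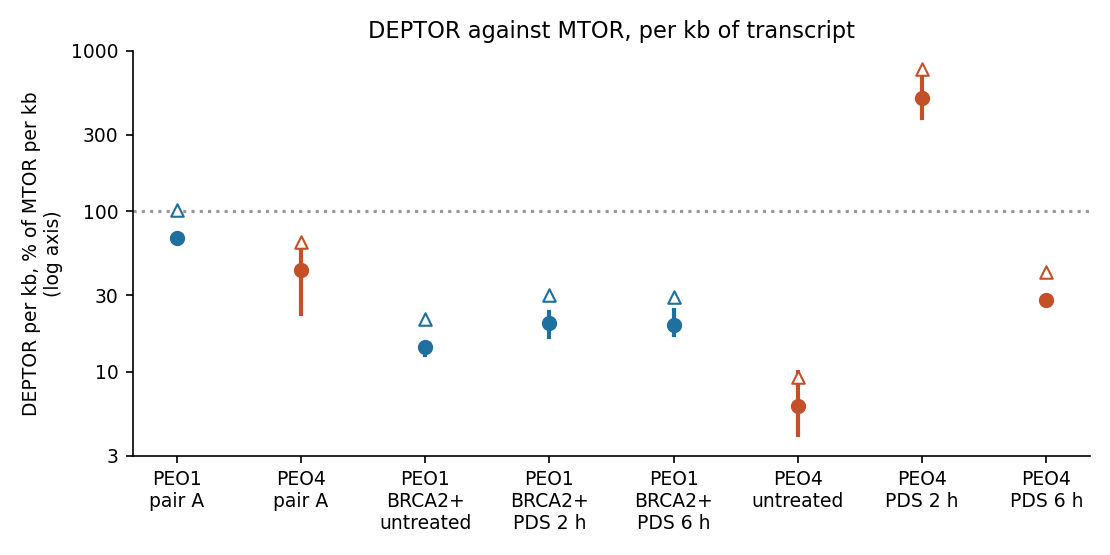
Level of DEPTOR per kilobase of transcript as a percentage of that of MTOR, on a log axis, in the 8 conditions. Filled points are means of 3 libraries with the canonical transcript lengths, vertical lines run from the lowest to the highest library, and open triangles are means with the summed exon lengths. PEO4 treated with PDS for 2 h reaches 510% (380% to 683%), and the other conditions lie between 6.15% and 68.4%.

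The 9 partners moved far less than DEPTOR in PEO4 under PDS. None of the 9 passed a 2-fold change at 2 h or 6 h against untreated cells or at 6 h against 2 h, where 18.9%, 24.3% and 13.8% of all genes tested passed it. Their log2 fold changes ran from -0.68 to 0.59 at 2 h (median -0.23) and from -0.55 to 0.56 at 6 h (median 0.05), and the medians of all genes were 0 and -0.03. Between 2 h and 6 h they ran from -0.31 to 0.69 (median 0.14). The groups' libraries did not overlap for 2 partners that were higher and 4 that were lower at 2 h against untreated cells, where 32.9% and 31.3% of all genes tested were without overlap in these directions. At 6 h there were 4 such partners higher and 3 lower (36.3% and 35.9% of all genes), and between 2 h and 6 h 7 higher and 1 lower (32.9% and 35.2% of all genes). By the stricter rule used here for a call, an adjusted p under 0.05 with a change of more than 2-fold, 6.4% and 11% of all genes were called higher and lower at 2 h, 6.26% and 16.3% at 6 h, and 2.27% and 9.71% between them. Since these libraries chose the genes, nothing is read from these counts.

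Of the subunits shared by both complexes, MTOR, the kinase itself, was at 124, 134 and 123 CPM in untreated PEO4, at 85.9, 67.9 and 90.4 CPM at 2 h and at 136, 131 and 127 CPM at 6 h. Its libraries at 2 h lay below all untreated ones, and those at 6 h overlapped them. The log2 fold change was -0.64 at 2 h and 0.05 at 6 h, and the latter became -0.11 when library totals and -0.06 when upper quartiles were used for scaling. MLST8, a stabilizing subunit, had log2 fold changes of 0.16 and 0.26 and went from 63.2 ± 4.65 CPM to 70.5 ± 1.81 and 75.8 ± 1.06 CPM (SD, n = 3 each).

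RPTOR, which recruits the substrates of mTORC1, was at 195, 201 and 199 CPM untreated, at 156, 131 and 147 CPM at 2 h and at 193, 195 and 192 CPM at 6 h. Its libraries at 2 h stood below the others, and those at 6 h were just under the untreated ones without overlap. AKT1S1, which encodes the mTORC1 inhibitor PRAS40, overlapped its untreated libraries at 2 h (86.4 ± 8.45 against 101.6 ± 10.4 CPM, SD, n = 3 each) and was above them in every library at 6 h, at 130.3, 134.7 and 128.4 CPM. MTOR, RPTOR and AKT1S1, like TSC1 and TSC2 further upstream, had their lowest mean of the 3 PEO4 conditions at 2 h, where DEPTOR had its highest. RHEB, MLST8 and RPS6KB1 had their lowest mean in untreated cells, and RICTOR at 6 h. A relation to DEPTOR was not tested, and the share of all genes lowest at 2 h was not computed. RICTOR, the mTORC2 subunit that takes the place of RPTOR, was at 17.3 ± 2.62, 15.6 ± 0.623 and 12.6 ± 0.323 CPM at 0, 2 and 6 h, and its libraries fell below the untreated range only at 6 h.

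Upstream of the kinase, RHEB, the small GTPase that activates mTORC1, had the largest positive change of the 9 partners at both times. It was at 131, 138 and 116 CPM untreated, at 192, 189 and 197 CPM at 2 h and at 194, 192 and 183 CPM at 6 h. All treated libraries were above all untreated ones, and the 2 h and 6 h libraries overlapped. TSC1 and TSC2 form the complex that switches RHEB off. TSC2 had the most negative change at both times, from 136, 140 and 152 CPM untreated to 89.8, 89.6 and 87.0 CPM at 2 h and 98.4, 99.3 and 94.3 CPM at 6 h, with all treated libraries below all untreated ones. TSC1 was at 19.2 ± 3.42, 15.4 ± 0.955 and 17.6 ± 0.703 CPM at 0, 2 and 6 h, and its 6 h libraries overlapped the untreated ones. RPS6KB1, which encodes the S6 kinase downstream of mTORC1, was at 32.8 ± 3.67, 36.7 ± 2.23 and 40.4 ± 0.644 CPM, and only its 6 h libraries were all above the untreated ones. With library totals used for scaling, the median of all genes moved by -0.128 at 2 h and -0.16 at 6 h, so changes of this size are relative to the scaling.

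**Figure D3:**
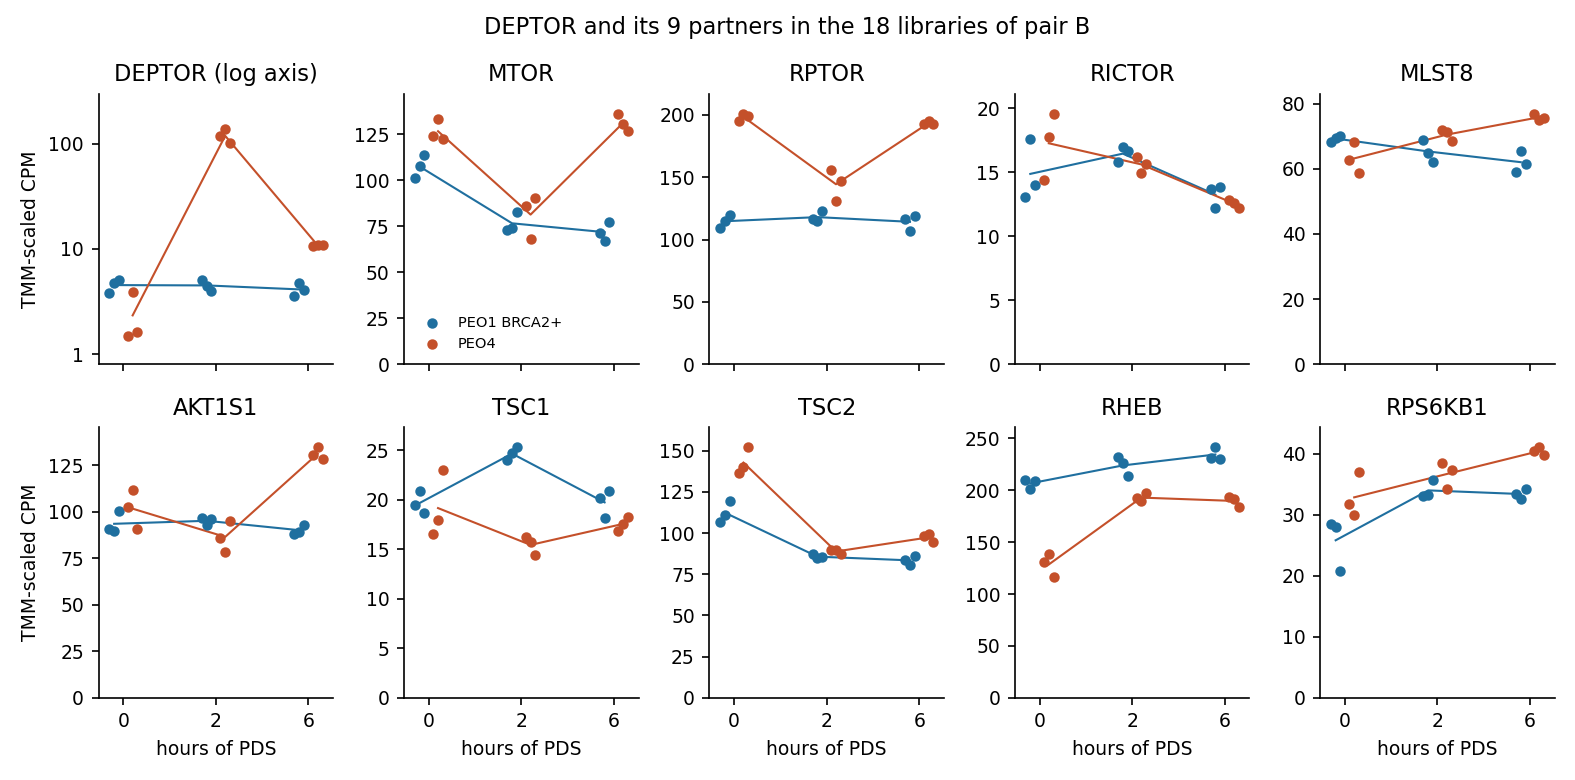
TMM-scaled CPM of the 10 genes in pair B against hours of PDS (0, 2 and 6), with PEO1 BRCA2+ in blue and PEO4 in red. Points are libraries, lines join the means of 3, the DEPTOR axis is logarithmic and the other axes start at 0. DEPTOR in PEO4 goes from 2.33 to 119 and 10.8 CPM, whereas MTOR goes from 127 to 81.4 and 131 CPM, and RHEB from 128 to 193 and 190 CPM.

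Whether the genes respond to PDS in the PEO1 BRCA2+ line was tested for all 10, since the choice of genes did not use these libraries apart from the shared fit. MTOR and TSC2 fell and RPS6KB1 rose at both times, TSC1 rose at 2 h, RHEB rose and MLST8 fell at 6 h, and none of these changes passed 2-fold. At 2 h against untreated cells 0 of the 10 were called by that rule, by edgeR and by DESeq2, where 1.18% of all genes were called higher and 6.39% lower. By adjusted p alone 2 rose and 2 fell (background 26.4% and 26.2%), and these 4 were also those with an unadjusted p under 0.05. At 6 h 0 were again called by both tools (background 1.29% and 6.83%), and by adjusted p alone 2 rose and 3 fell (background 27% and 26%), the same 5 as by unadjusted p. Shares of 4 and 5 in 10 are near what all genes showed.

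MTOR was at 101, 108 and 114 CPM in untreated PEO1 BRCA2+, at 73.0, 74.3 and 82.7 CPM at 2 h and at 71.5, 66.9 and 77.3 CPM at 6 h. Every treated library was below every untreated one, and the libraries at 6 h overlapped those at 2 h. The log2 fold changes were -0.49 and -0.58 (adjusted p = 3.03e-05 and 3.23e-06, Benjamini-Hochberg, edgeR quasi-likelihood). TSC2 went from 107, 111 and 119 CPM to 87.1, 84.6 and 85.4 CPM at 2 h and 83.8, 80.4 and 86.0 CPM at 6 h. The treated and untreated libraries of TSC2 did not overlap, and the log2 fold changes were -0.39 and -0.43 (adjusted p = 1.81e-06 and 4.23e-07 by the same test). RPS6KB1 was at 28.5, 28.1 and 20.9 CPM untreated and between 32.6 and 35.7 CPM in the treated libraries, all above the untreated ones, with log2 fold changes of 0.40 and 0.37 (adjusted p = 0.000640 and 0.00119 by the same test).

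TSC1 was at 19.5, 20.9 and 18.7 CPM untreated, 23.99, 24.7 and 25.3 CPM at 2 h and 20.2, 18.1 and 20.9 CPM at 6 h. It rose by 0.33 on the log2 scale at 2 h (adjusted p = 0.00443, Benjamini-Hochberg, edgeR quasi-likelihood), which did not pass with library totals used for scaling (adjusted p = 0.134). Its value at 6 h was 0.01 (adjusted p = 0.971). RHEB changed by 0.12 at 2 h (adjusted p = 0.0912) and rose by 0.18 at 6 h (adjusted p = 0.00916), and the latter did not pass with library totals (adjusted p = 0.573). MLST8 changed by -0.09 at 2 h (adjusted p = 0.227) and fell by 0.16 at 6 h (adjusted p = 0.0233), which did not pass without untreated replicate 2 or 3 or 6 h replicate 1 or 3 (adjusted p = 0.0754, 0.0819, 0.135 and 0.0768). RPTOR, RICTOR and AKT1S1 had values of 0.04, 0.14 and 0.02 at 2 h and -0.01, -0.17 and -0.05 at 6 h, and none passed the test (adjusted p from 0.178 to 0.943). RICTOR at 2 h passed without untreated replicate 2 (adjusted p = 0.0260) and RHEB at 2 h without 2 h replicate 3 (adjusted p = 0.0445). With library totals, MLST8 at 2 h and RPTOR, RICTOR and AKT1S1 at 6 h passed as lower (log2 fold change -0.23, -0.15, -0.32 and -0.20), while the median of all genes moved by -0.147 and -0.146. Between 2 h and 6 h, 0 of the 10 were called by edgeR or DESeq2 with the fold threshold. By adjusted p alone 0 rose and 1 fell (TSC1, log2 fold change -0.32, adjusted p = 0.0282), against 3.96% and 2.98% of all genes, and by unadjusted p RICTOR joined it (log2 fold change -0.31, adjusted p = 0.0605). RICTOR passed with DESeq2 (adjusted p = 0.0341), without a filter (0.0476), with a CPM filter (0.0486) and in a fit of only the groups compared (0.00998). TSC1 passed in only 1 of the 6 fits that left out a library, that without 6 h replicate 3 (adjusted p otherwise 0.0585 to 0.157).

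Before any treatment the lines differed in several partners, in shares near or below those of all genes tested. In pair A, RPTOR was higher and RHEB lower in PEO4 than in PEO1 by over 2-fold, and these were the 2 genes called, 1 in each direction, where 12.6% of all genes were called higher and 13.1% lower. By adjusted p alone MTOR, RPTOR, RICTOR and RPS6KB1 were higher and MLST8, AKT1S1 and RHEB lower (4 and 3 of the 10, background 30.1% and 31.6%). RPTOR was at 94.6, 97.7 and 94.3 CPM in PEO1 and at 226, 227 and 239.8 CPM in PEO4 (log2 fold change 1.27 ± 0.07 SE, adjusted p = 9.05e-09, Benjamini-Hochberg, edgeR quasi-likelihood). RHEB was at 293, 291 and 290.4 CPM in PEO1 and at 114, 137 and 133 CPM in PEO4 (log2 fold change -1.19 ± 0.08 SE, adjusted p = 8.69e-08 by the same test). The lines did not overlap in either gene. RPS6KB1 lay just short of the fold threshold, at 33.7, 36.7 and 33.9 CPM in PEO1 and 67.8, 71.3 and 67.9 CPM in PEO4 (log2 fold change 0.99, adjusted p = 2.08e-07), and was called without PEO1 replicate 2 or without PEO4 replicate 1 or 3. MTOR was at 79.2 ± 3.04 CPM in PEO1 and 124 ± 14.8 CPM in PEO4 (SD, n = 3 each) and the log2 fold change 0.65 (adjusted p = 3.68e-05). RICTOR, MLST8 and AKT1S1 differed by 0.32, -0.22 and -0.34 (adjusted p = 0.0204, 0.0213 and 0.00158), but RICTOR did not pass without PEO1 replicate 2 or 3 or PEO4 replicate 3 (adjusted p = 0.0852, 0.108 and 0.0512), nor MLST8 without PEO1 replicate 1, 2 or 3 or PEO4 replicate 2 (adjusted p = 0.0502, 0.0695, 0.0572 and 0.0637). TSC1 and TSC2 had values of -0.16 and -0.14 (adjusted p = 0.158 and 0.140), and TSC2 passed without PEO4 replicate 3 (adjusted p = 0.0497).

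In pair B, with PEO1 BRCA2+ in place of PEO1, RPTOR was again higher and RHEB again lower in untreated PEO4, by less than 2-fold. The pairs also differed in the sodium pyruvate of the medium and were made and scaled separately. Differences between the pairs can therefore not be told apart from these. The untreated PEO4 libraries are among those whose DEPTOR values chose the genes, so these p values are not independent of the choice. None of the 9 partners was called at the fold threshold, by edgeR or by DESeq2 (background 12.2% higher and 12.6% lower). By adjusted p alone MTOR, RPTOR, TSC2 and RPS6KB1 were higher and MLST8 and RHEB lower (4 and 2 of the 9, background 34% and 34.6%), and the same 6 had an unadjusted p under 0.05. For so few genes these counts are near or below what all genes showed. RPTOR was at 110, 115 and 119.6 CPM in PEO1 BRCA2+ and at 195, 201 and 199 CPM in PEO4 (log2 fold change 0.79 ± 0.06 SE, adjusted p = 1.83e-11, Benjamini-Hochberg, edgeR quasi-likelihood). RHEB was at 209.8, 201 and 209 CPM in PEO1 BRCA2+ and 131, 138 and 116 CPM in PEO4 (log2 fold change -0.69 ± 0.06 SE, adjusted p = 1.26e-10 by the same test). The lines did not overlap in either. TSC2 was higher in PEO4 here, at 143 ± 8.34 against 112 ± 6.48 CPM (SD, n = 3 each, log2 fold change 0.35, adjusted p = 4.41e-06), whereas in pair A its value was -0.14. RPS6KB1 and MTOR differed by 0.35 and 0.24 (adjusted p = 0.00171 and 0.0141), and MLST8 by -0.13 (adjusted p = 0.0483). MTOR did not pass without PEO1 BRCA2+ replicate 1 or PEO4 replicate 2 (adjusted p = 0.0728 and 0.0544), and MLST8 passed only without PEO4 replicate 2 when 1 library was left out. RICTOR, AKT1S1 and TSC1 had values of 0.21, 0.12 and -0.04 (adjusted p = 0.0830, 0.135 and 0.735), and RICTOR passed without PEO1 BRCA2+ replicate 2 or PEO4 replicate 1 (adjusted p = 0.00653 and 0.00841) and AKT1S1 without PEO4 replicate 3 (adjusted p = 0.0160). For DEPTOR, given without a test, the value was -0.99. The mean of PEO4 was 0.515 times that of PEO1 BRCA2+, and 0.341 times without PEO4 replicate 2, the only library that overlapped.

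**Figure D4:**
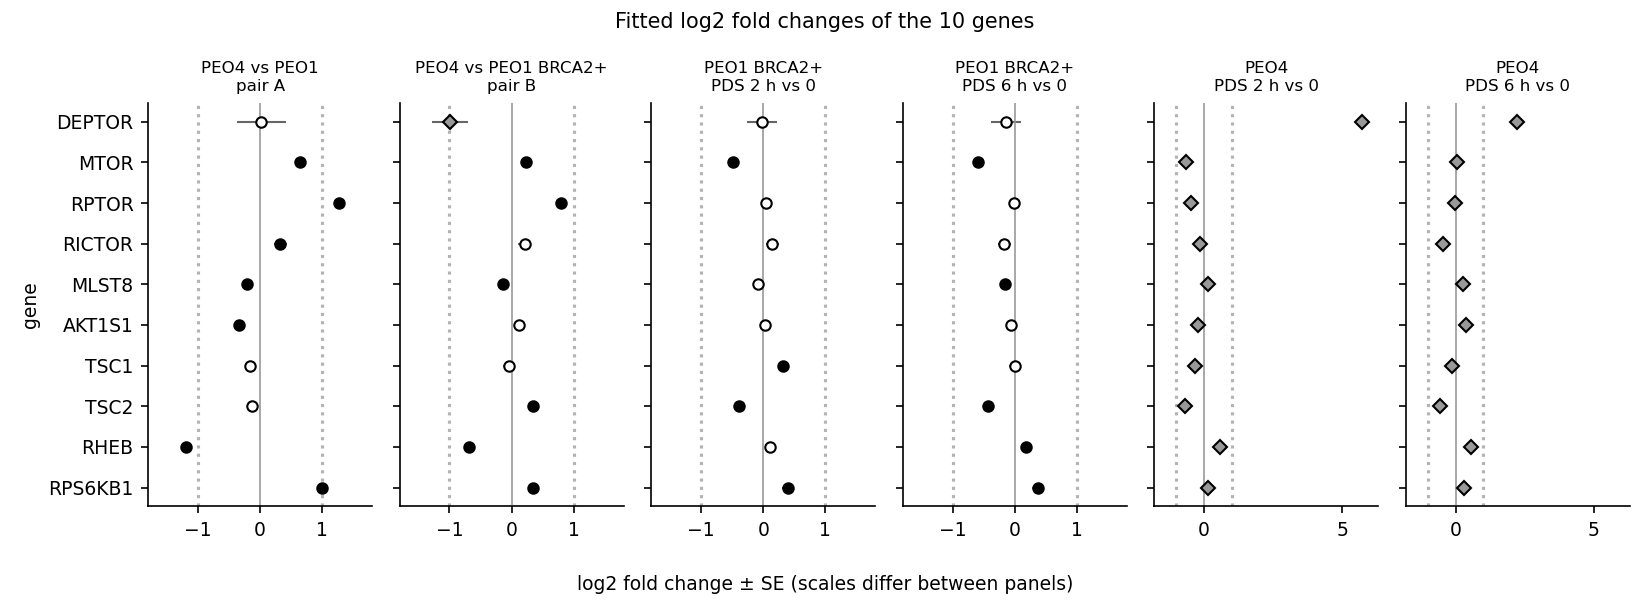
Fitted log2 fold changes ± standard error of the genes in 6 comparisons, 1 panel each. Filled circles passed an adjusted p under 0.05, open circles did not, grey diamonds are values given without a test, dotted lines mark a 2-fold change and the horizontal scales differ between panels. DEPTOR in PEO4 lies at 5.70 and 2.24, while the partners lie within the 2-fold lines in these panels, and RPTOR (1.27) and RHEB (-1.19) pass them in pair A.

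The other genes of the pathway were followed as a list of 89 genes in sublists by role, of which 86 were tested in pair A and 87 in pair B. In PEO4 against PEO1 of pair A, 4 were called higher and 5 lower (background 12.6% and 13.1%), with a median log2 fold change of -0.07 (all genes -0.01). The counts were 6 and 5 with library totals and 8 and 5 with upper quartiles for scaling. In pair B 8 were called higher and 6 lower (background 12.2% and 12.6%), with a median of -0.02 (all genes 0). SGK1, an mTORC2 substrate kinase, was lower in PEO4 in both pairs, at 1.94 ± 0.398 against 47.8 ± 1.32 CPM in pair A (log2 fold change -4.65, adjusted p = 4.71e-11) and 8.97 ± 6.68 against 44.7 ± 8.74 CPM in pair B (log2 fold change -2.34, adjusted p = 3.54e-05, both Benjamini-Hochberg, edgeR quasi-likelihood), where the value without PEO4 replicate 2 was -3.06. PRKAG2, a regulatory subunit of the energy sensor AMPK, was lower in both pairs too (log2 fold change -2.36 and -2.02). IRS1, the docking protein of the insulin receptor, was lower in PEO4 in pair A (64.4 ± 4.68 against 159 ± 7.89 CPM) and higher in pair B (453 ± 7.62 against 173 ± 26.4 CPM), with log2 fold changes of -1.30 and 1.39. RRAGD, a Rag GTPase of lysosomal amino acid sensing, was higher in pair A (30.2 ± 4.13 against 4.17 ± 0.384 CPM, log2 fold change 2.86). In pair B, MAF1, a repressor of RNA polymerase III, and IGF1R, the IGF1 receptor, were higher (log2 fold change 1.58 and 1.56), and PHLPP1, an AKT phosphatase, was lower (log2 fold change -1.44).

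Under PDS, IRS1 fell in both lines. In PEO1 BRCA2+ it went from 173 ± 26.4 CPM to 61.2 ± 4.59 CPM at 2 h and 74.4 ± 2.36 CPM at 6 h (SD, n = 3 each; log2 fold change -1.50 and -1.22, adjusted p = 1.53e-12 and 2.34e-11, Benjamini-Hochberg, edgeR quasi-likelihood). In PEO4 it went from 460, 455 and 445 CPM to 149, 131 and 129 CPM at 2 h (log2 fold change -1.73, adjusted p = 8.70e-15) and to between 216 and 226 CPM at 6 h (log2 fold change -1.04). Of the list, 0 genes rose and 3 fell past the threshold in PEO1 BRCA2+ at each time, among them IRS1 and PIK3R3 of the PI3K-AKT sublist. By adjusted p alone 1 of the 18 PI3K-AKT genes rose and 10 fell at each time (background 26.4% and 26.2% at 2 h, 27% and 26% at 6 h), and their median was -0.27 at 2 h and -0.28 at 6 h (all genes -0.03 at both). In the list as a whole 21 rose and 25 fell by adjusted p alone at 2 h, and 20 and 23 at 6 h.

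In PEO4, 4 genes of the list rose and 4 fell at 2 h, and 3 rose and 5 fell at 6 h, with medians of -0.02 and 0.08 (background 6.4% and 11% at 2 h, 6.26% and 16.3% at 6 h). With library totals for scaling, 2 rose and 5 fell at 2 h and 3 rose and 7 fell at 6 h. Of the mTORC1 outputs, EIF4EBP1, the translation repressor that mTORC1 phosphorylates, rose at 2 h from between 54.2 and 58.5 CPM to 129, 139 and 126 CPM (log2 fold change 1.22, adjusted p = 2.38e-14, Benjamini-Hochberg, edgeR quasi-likelihood). RPS6, the ribosomal protein that S6 kinase phosphorylates, rose at 2 h from between 389 and 415 CPM to 809, 915 and 849.6 CPM (log2 fold change 1.09, adjusted p = 1.39e-13). Both genes were named after their values were seen, and the libraries of each at 2 h lay above all untreated ones. At 6 h in PEO4, EIF4EBP1 was at 101, 98.5 and 102 CPM and RPS6 at 642, 652 and 669 CPM, still above all untreated libraries. In PEO1 BRCA2+ they rose too, by less than 2-fold, RPS6 by 0.80 and 0.77 on the log2 scale at 2 h and 6 h (adjusted p = 1.71e-10 and 2.21e-10) and EIF4EBP1 by 0.35 and 0.31 (adjusted p = 2.90e-05 and 0.000153). Untreated PEO4 was lower than untreated PEO1 BRCA2+ in both genes (log2 fold change -0.90 for EIF4EBP1 and -0.31 for RPS6). At 2 h EIF4EBP1 was at 141, 134 and 127 CPM in PEO1 BRCA2+, near its level in PEO4. SGK1 rose in PEO4 at both times, from 7.32, 16.3 and 3.27 CPM to 27.9, 26.4 and 31.6 CPM at 2 h and to between 32.4 and 36.1 CPM at 6 h (log2 fold change 1.70 and 1.96, adjusted p = 0.000594 and 0.000150). Its untreated replicate 2 was the highest of 3, as for DEPTOR, and without that library the log2 fold changes were 2.43 and 2.69. In PEO1 BRCA2+ SGK1 rose by 0.88 at 2 h (adjusted p = 0.0177), and its value at 6 h was 0.66 (adjusted p = 0.0636). PRKAG2 rose at 2 h from 24.6 ± 6.33 to 53.4 ± 3.40 CPM (log2 fold change 1.12), but not past the fold threshold without untreated replicate 3 (0.97) or with library totals for scaling.

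At 6 h in PEO4, PIK3R2, a regulatory subunit of PI3K, fell from 89.8 ± 12.9 to 27.3 ± 1.11 CPM (log2 fold change -1.72), and PDCD4, a translation inhibitor degraded downstream of S6 kinase, fell from 60.3 ± 10.2 to 17.0 ± 0.303 CPM (log2 fold change -1.83). DDIT4, a stress-induced inhibitor of mTORC1, was at 97.4 ± 6.74 against 201 ± 46.0 CPM (log2 fold change -1.05), and fell short of the fold threshold without untreated replicate 3 (-0.84) or 6 h replicate 1 (-0.99). RRAGC, a Rag GTPase, rose from 25.6, 21.7 and 22.5 CPM to 58.7, 54.7 and 54.5 CPM (log2 fold change 1.26, adjusted p = 3.62e-14, Benjamini-Hochberg, edgeR quasi-likelihood). Of the 6 genes of mTORC2 and kinase assembly, only PRR5L was called in PEO4, at 2 h (log2 fold change -1.40). Of the 5 genes that act on DEPTOR protein (BTRC, FBXW11, CSNK1A1, USP7 and OTUB1), 0 were called at the fold threshold by edgeR in PEO4. By adjusted p alone, and likewise by unadjusted p, 1 rose and 3 fell at 2 h, and 2 rose and 0 fell at 6 h. Of all genes tested, 33.3% rose and 32% fell by adjusted p alone at 2 h, and 34.6% and 35.2% at 6 h.

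The genes around DEPTOR on chromosome 8 were mostly far less changed in PEO4 at 2 h than DEPTOR. DSCC1, a cohesion factor gene 17.8 kb away and the next gene on one side, was at 33.9, 31.6 and 28.8 CPM in untreated PEO4 and 45.4, 40.1 and 47.3 CPM at 2 h, a log2 fold change of 0.49. COL14A1, a collagen gene 73.5 kb away on the other side, had too few counts to be tested, with 0 to 2 counts in the untreated PEO4 libraries, 10 to 19 at 2 h and 2 to 3 at 6 h. Of the 11 neighbours tested within 1561.2 kb, SNTB1 and HAS2 were called higher at 2 h and TNFRSF11B lower (2 and 1, background 6.4% and 11%), HAS2 at only 0 to 7 counts untreated and 17 to 41 at 2 h. TAF2, MTBP and MAL2, which lie 40.9, 394.5 and 628.0 kb away, had log2 fold changes of 0.06, -0.10 and -0.42.

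SNTB1, a syntrophin gene 484.8 kb from DEPTOR, was also highest at 2 h, from 4.55, 9.54 and 4.42 CPM untreated to 39.5, 46.4 and 34.3 CPM at 2 h and 8.90, 10.6 and 11.2 CPM at 6 h. The 2 h libraries were above all others, at a mean of 40.1 against 6.17 CPM, the 6 h libraries overlapped the untreated ones, and untreated replicate 2 was again the highest of its group. In PEO1 BRCA2+ it was between 4.67 and 6.47 CPM throughout, and the log2 fold changes of -0.29 and -0.34 did not pass the test (adjusted p = 0.290 and 0.209, Benjamini-Hochberg, edgeR quasi-likelihood).

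Genes that varied by an SD of at least 1 in log2 CPM over the 18 libraries of pair B were searched, passing over symbols that begin with LOC or MIR. Among these 2145 genes, the 5 most like DEPTOR were KCNF1, SNTB1, MILR1, LINC00673 and PPP1R1A, with a Pearson r of 0.979, 0.968, 0.954, 0.950 and 0.947. This is a description over 18 points that share their libraries and treatment groups. Over the 6 group means, 4 of these 5 were again among the first 5. KCNF1, a potassium channel subunit gene, was at 13.2, 30.4 and 14.1 CPM in untreated PEO4, 252, 305 and 215 CPM at 2 h and 32.0, 33.6 and 40.6 CPM at 6 h, and between 15.6 and 29.7 CPM in PEO1 BRCA2+. Its level at 2 h stood above every other library, as did that of DEPTOR. LINC00673, a long non-coding RNA gene, had means of 1.48, 26.9 and 9.20 CPM in PEO4 at 0, 2 and 6 h, whereas MILR1 and PPP1R1A reached only 4.03 and 6.03 CPM at 2 h. The 9 partners each varied by an SD of less than 1, so none was among the genes searched. Their r with DEPTOR ran from -0.634 for TSC1 to 0.541 for MLST8, with -0.240 for MTOR and 0.0324 for RPTOR. These values cannot be set against those of the 5 genes, which were picked for a high r.

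**Figure D5:**
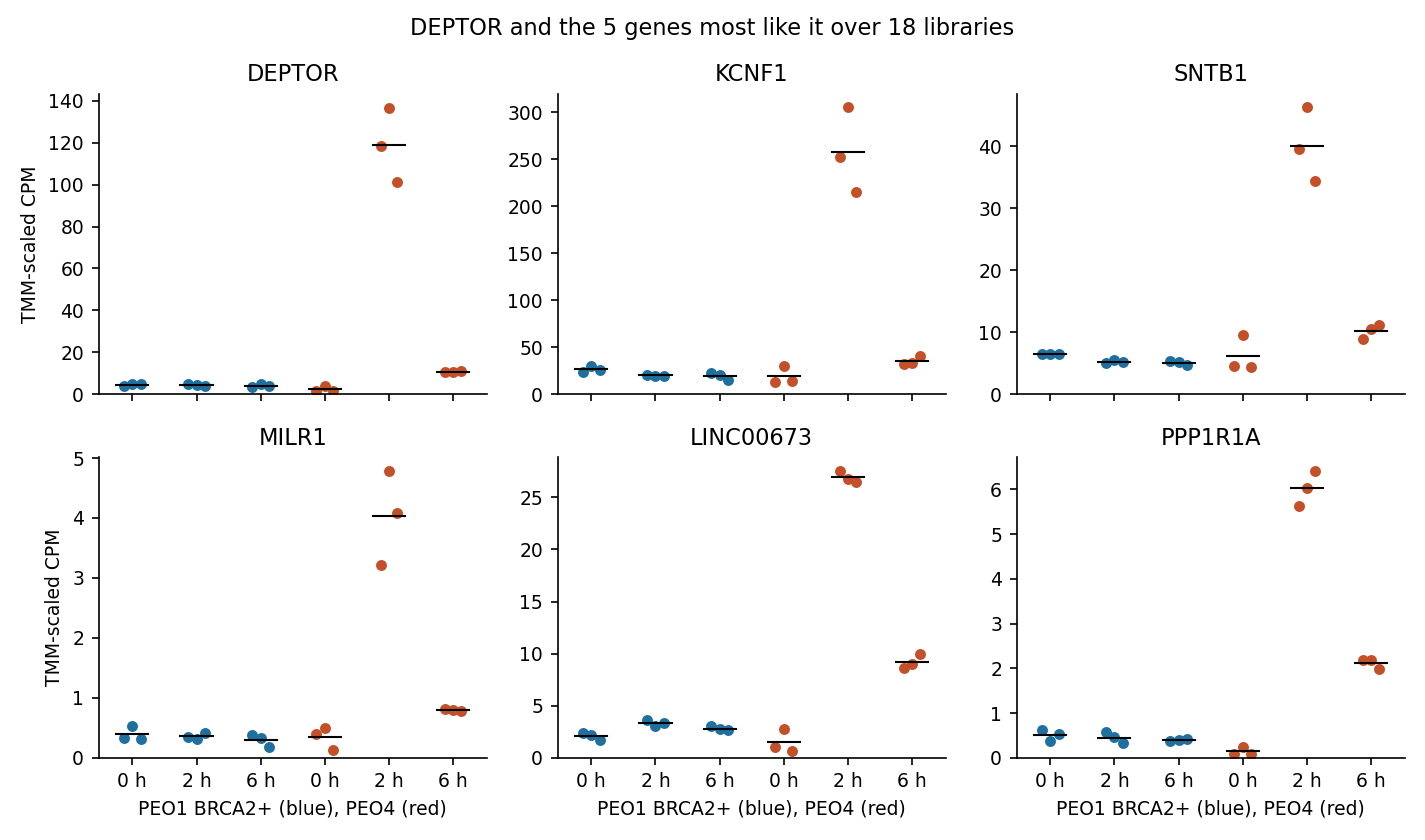
DEPTOR and the 5 genes most like it over the 18 libraries of pair B, as TMM-scaled CPM on linear axes in the 6 conditions. Points are libraries and lines the means of 3. In each panel PEO4 after 2 h of PDS stands above the other 5 conditions, at a mean of 119 CPM for DEPTOR, 258 CPM for KCNF1 and 40.1 CPM for SNTB1.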

How the data were processed

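RNA was extracted on columns with DNase digestion, and polyadenylated RNA was sequenced. Per the labels' processing notes, the authors used FastQC, fastp, STAR and featureCounts with hg38, and deposited raw counts per gene for 6 libraries of pair A and 18 of pair B. Versions, annotation and strand setting are not given in the sources used here, so reads could not be assigned with certainty where genes overlap (MTOR with ANGPTL7 and MTOR-AS1, RICTOR with OSMR, MLST8 with BRICD5, AKT1S1 with TBC1D17, TSC2 with PKD1, RPTOR with LOC101928855 and LOC400627). Of the lines, 2 and 1 could not be read and were left out.

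Each table was fitted on its own with edgeR 4.0.16 in R 4.3.3: TMM scaling, filterByExpr (minimum count 10, minimum total 15), robust quasi-likelihood fit with a mean per group, and Benjamini-Hochberg adjustment over the 15882 genes of pair A (4 residual degrees of freedom) and 17020 of pair B (12). A gene was called at an adjusted p under 0.05 with a log2 fold change above 1 or below -1, and adjusted p alone was counted too. CPM are TMM-scaled, log2 CPM use a prior count of 2, and SDs cover the spread between the 3 biological replicates only. Standard errors of log2 fold changes were derived from the test statistic of the quasi-likelihood fit, which shares its dispersion over the libraries of a table. They are not the spread of a gene's 3 replicates. Library totals lay between 18699929 and 63882077 counts. No 2 replicates agreed within sampling noise, and all were kept. All 10 genes passed the filter in both tables.

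The genes and lists were chosen with earlier results of these data known. From the pathway list, the called gene with the largest change in each direction per sublist is named where the mean log2 CPM was at least 3, and others are named after their values were seen. Genes that met this rule but are not described above were PIK3CD (log2 fold change 1.22) and SESN3 (-1.20) in pair A, and FNIP1 (1.29) and TBC1D7 (1.16) in pair B. SESN3 fell short of the fold threshold without PEO1 replicate 1 (-0.89) and was higher in pair B (1.31). Genes most like DEPTOR had the highest Pearson r over 18 libraries, with symbols beginning LOC or MIR passed over. Alternatives were library totals, DESeq2 size factors, upper quartiles, the Wald test of DESeq2 1.42.0, no filter or one on CPM, only the groups compared, a replicate term, and each library left out. The scripts were tested on simulated data. No comparison was made between the tables' levels. Some genes of the lists are not reported here by name.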

Additional observations from a re-analysis of the deposited data

Results flagged for a closer look

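Libraries were set against the mean of their comparison group in TMM-scaled log2 CPM. At 2 h and 6 h of PDS, the lines moved in opposite directions in every library for 7 contrasts of the 9 partners. The same held for TSC2 between the pairs. The share of all genes that meet this rule was not computed, so nothing is read from the count. On the CPM scale RPTOR of PEO1 BRCA2+ at 2 h did not meet it, as replicate 2 (114.646) lay below the untreated mean (114.696). None of these differences was tested, and no explanation is offered. Given as the log2 change in PEO4 minus that in PEO1 BRCA2+, the values were 0.63 for MTOR at 6 h, -0.50 for RPTOR at 2 h, -0.29 for RICTOR at 2 h, 0.24 and 0.42 for MLST8 at 2 h and 6 h, 0.42 for AKT1S1 at 6 h and -0.64 for TSC1 at 2 h. For TSC2, the difference of PEO4 from PEO1 BRCA2+ in pair B was 0.48 larger on the log2 scale than that of PEO4 from PEO1 in pair A. These directions depend on the scaling: with library totals the values of MTOR in PEO4 at 6 h (-0.11) and of RPTOR and RICTOR in PEO1 BRCA2+ at 2 h (-0.11 and -0.01) turned, so that both lines changed in the same direction, and with upper quartiles those of MTOR (-0.06) and RPTOR (-0.04) did. The PEO4 values are from the libraries that chose the genes.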

How the results depend on the processing

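With adjusted p alone in place of adjusted p and fold, the genes called rose to 7 in pair A, 6 in pair B (without DEPTOR), 4, 5 and 1 in PEO1 BRCA2+ at 2 h, 6 h and 6 h against 2 h, and the pathway list to 55 in pair A, 66 in pair B, 46 and 43 in PEO1 BRCA2+ and 61 and 66 in PEO4 at 2 h and 6 h. The other alternatives kept these counts, summed over both directions, within 1.5 times. By direction, the list genes called higher went from 4 to 8 in pair A with upper quartiles and from 4 to 2 in PEO4 at 2 h with library totals. Leaving out each library in turn gave 2 to 3 genes called in pair A and 0 in the other tested comparisons, and 9 to 12, 12 to 16, 3 to 4, 3 to 4, 7 to 10 and 7 to 10 list genes in the order above. DEPTOR in PEO4 ranged from 5.44 to 6.27 at 2 h, 1.99 to 2.81 at 6 h and -3.56 to -3.35 between them, and the partners past 2-fold stayed at 0. In pair A, DEPTOR ran from -0.52 (without PEO4 replicate 1, where its sign turned, adjusted p = 0.0158 by edgeR) to 0.32. The replicate numbers did not pair the samples (correlations of same-numbered libraries from -0.158 to 0.134). With a replicate block, 2 genes were called in pair A and 0 in the other tested comparisons, the list gave 9, 14, 3, 3, 8 and 8, and DEPTOR was 5.70 at 2 h. Of single-gene results, 36 lost and 16 gained the threshold, mostly MLST8, RICTOR and TSC1 with small changes. Depth limits DEPTOR most in untreated PEO4, at 34 to 78 counts.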
